A study of Rattus norvegicus with 24 samples.

Results

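The glutathione transferases examined here were Gsta3, Gsta4, Gstm1, Gstm2, Gstm5, Gstp1, Gstt1, Gsto1, Gstk1 and Mgst1, measured in the lung of Fischer-344 rats after inhalation of hexanal. They were found by matching the transcript that each array probe targets to these symbols, which gave 11 probes for the 10 genes, among 30367 probes and 21255 genes or unnamed probes tested. Gsta3 had 2 probes and every other member had 1. The study held 24 rats, with 3 males and 3 females in each of a control group that breathed filtered clean air, a low-dose group (600 ppm), a middle-dose group (1000 ppm) and a high-dose group (1500 ppm). The labels name no genetic change or other agent for any group, and the rats were 7 to 8 weeks old at the start, exposed for 4 h a day on 5 days a week over 5 weeks. The labels' protocol gives the same concentrations in mg per cubic metre where the sample titles give ppm, and the paper's methods give a shorter exposure, so the exposure is named here by the titles. Each array held RNA from lung tissue of 1 rat, a mix of cell types, and in such a sample fewer cells of a type and less RNA per cell cannot be told apart. A difference in the piece of lung taken cannot be told apart from these either.

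Glutathione transferases join the tripeptide glutathione to electrophilic molecules, which makes them more soluble and ready for export. The cytosolic enzymes fall into classes named alpha, mu, pi, theta and omega, Gstk1 is the kappa enzyme of mitochondria and peroxisomes, and Mgst1 sits in membranes and belongs to a separate family. Gsta4 is known for its activity on hydroxynonenal, an aldehyde that, like hexanal, forms when lipids are oxidised. In the lung these enzymes are found in the airway epithelium in particular, and several of them are induced through the transcription factor Nrf2, which binds the antioxidant response element.

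The 250 bases before the annotated start of each gene were read for the core of that element, TGACNNNGC, on both strands. RefSeq's promoter table for the build GRCr8 held windows for 9 of the 10 members (10 windows, 2 of them for Gsta3), and Gstt1 had no entry. The core was found in 3 of the 10 windows and in 10.1% of all 33469 windows of that length in the table. The windows of Gsta3, Gstm5 and Gstp1 are shown because they hold it, in capitals, and that of Gstm1 because this gene differed most from control. All are written 5′ to 3′ on the strand of the gene.
Gstm1, chr2:198343384-198343633, minus strand: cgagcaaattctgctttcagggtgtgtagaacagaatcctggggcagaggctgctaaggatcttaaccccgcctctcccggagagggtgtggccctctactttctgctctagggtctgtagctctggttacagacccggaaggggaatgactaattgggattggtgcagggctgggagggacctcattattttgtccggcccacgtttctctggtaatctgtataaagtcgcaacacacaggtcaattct
Gsta3, chr9:31154739-31154988, plus strand: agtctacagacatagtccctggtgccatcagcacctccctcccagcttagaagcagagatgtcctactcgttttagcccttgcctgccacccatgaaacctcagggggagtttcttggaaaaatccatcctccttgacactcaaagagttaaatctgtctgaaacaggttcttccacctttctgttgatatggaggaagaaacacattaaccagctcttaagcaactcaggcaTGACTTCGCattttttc
Gstm5, chr2:198219519-198219768, plus strand: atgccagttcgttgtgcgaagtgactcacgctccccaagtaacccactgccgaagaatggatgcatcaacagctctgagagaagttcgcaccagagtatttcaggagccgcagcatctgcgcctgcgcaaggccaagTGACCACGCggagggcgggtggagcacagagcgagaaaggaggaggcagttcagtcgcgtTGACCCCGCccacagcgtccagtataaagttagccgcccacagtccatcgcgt
Gstp1, chr1:210769706-210769955, minus strand: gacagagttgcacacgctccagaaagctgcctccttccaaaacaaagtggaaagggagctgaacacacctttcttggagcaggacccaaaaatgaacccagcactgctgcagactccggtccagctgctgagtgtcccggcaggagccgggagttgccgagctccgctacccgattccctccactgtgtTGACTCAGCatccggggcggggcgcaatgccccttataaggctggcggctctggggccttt
The match in Gstp1 began 61 bases before the start, and its first letters, TGACTCA, are also those of the site bound by AP-1 factors. The match in Gsta3 began 17 bases before the start, and those in Gstm5 began 113 and 53 bases before it. A match of letters is a description of the window and does not show that a factor binds there. Gstm1, Gstm2 and Gstm5 lie on the same chromosome, and members of this family resemble each other in sequence, so a probe may also take up transcripts of a close relative. The probe sequences were not analysed here.

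Values are log2 of the scanner's background-subtracted signal minus log2 of the 75th percentile of the same array, called the log2 scaled signal below, so that 0 is the signal at that percentile and 1 unit is a 2-fold difference. The 75th percentile lay between 1701 and 3133 signal units, and 70.7% to 81.7% of probes were well above background on each array. All 11 probes were well above background on all 24 arrays and none was saturated. Signals of different probes depend on the probe, so levels are compared between rats and never between genes. The lung label was checked with the cell type markers present on the array. For alveolar type II cells 8 of 8 and for type I cells 4 of 5 were well above background in every rat. The same held for 6 of 6 of ciliated cells and 6 of 6 of club cells. The remaining type I marker, Rtkn2, did not pass the filter for signal above background. The arrays lay on 6 slides of 4, with 3 slides of males and 3 of females, and each sex therefore had its own slides. No slide held control rats together with middle-dose or high-dose rats.

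The first comparison asked whether each member differed between an exposed group and the control group. In the low-dose group 9 of 10 members had a higher mean than control, with a median difference of 0.10 on the log2 scale. In the middle-dose group again 9 of 10 were higher, with a median of 0.17. In the high-dose group 5 were higher and 5 lower, with a median of -0.004. Over all genes tested the median difference was -0.001, 0.005 and 0.013 at the low, middle and high dose, and 49.6%, 51.2% and 53.8% of genes were higher.

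The 3 comparisons share their control rats, so a low or high value in 1 control rat enters all of them. By limma, 1 of 10 members had an unadjusted p-value under 0.05 at the low dose (Gstt1), where 4.35% of all genes did. At the middle dose 3 members passed (Gstm1, Gsto1 and Gstk1) against 8.98% of all genes, and at the high dose 0 members against 6.96%. The study's thresholds, a fold change of at least 1.5 with an unadjusted p-value under 0.05, are called the study's rule here. They were applied to limma's p-values, where the study used an unpaired t-test. The rule was met by Gstm1 at the middle dose and by no other member at any dose. It was met by 0.616%, 1.63% and 1.22% of all genes at the low, middle and high dose. After Benjamini-Hochberg adjustment over all 21255 tests, 0 members passed 0.05 at any dose, and over all genes the share was 0% at the low, 0.0188% (4 genes) at the middle and 0.0047% (1 gene) at the high dose. The 95% confidence interval of the difference stayed within 1.5-fold in either direction for 9 members at the low dose, 9 at the middle dose and 8 at the high dose. The exceptions were Gstm1 at every dose and Gstm5 at the high dose.

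**Figure D1:**
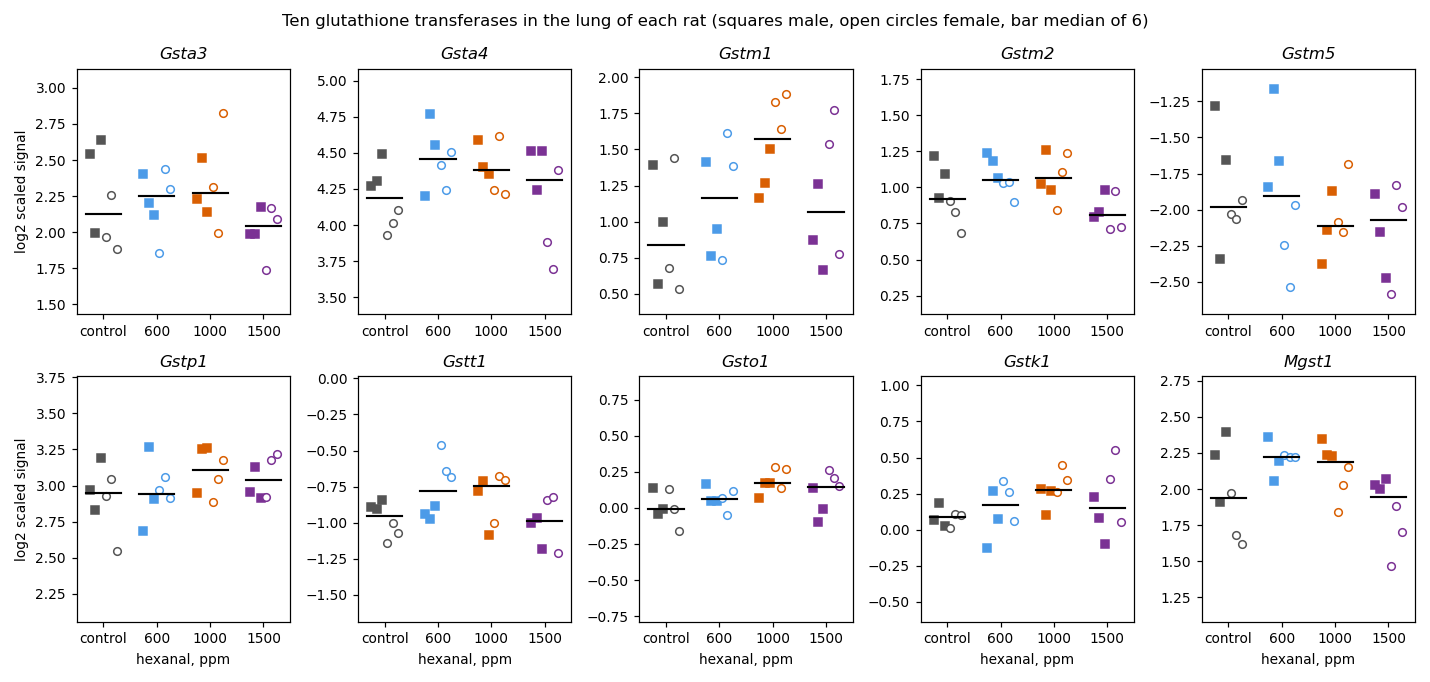
Log2 scaled signal of the 10 glutathione transferases (vertical axis, 1.7 units tall in every panel) in each of the 24 rats, by group (horizontal axis, hexanal in ppm). Squares are males, open circles females and bars the median of 6 rats. The Gstm1 values of the middle-dose group start at 1.16, above the control median of 0.84, while the groups overlap in every panel.

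**Figure D2:**
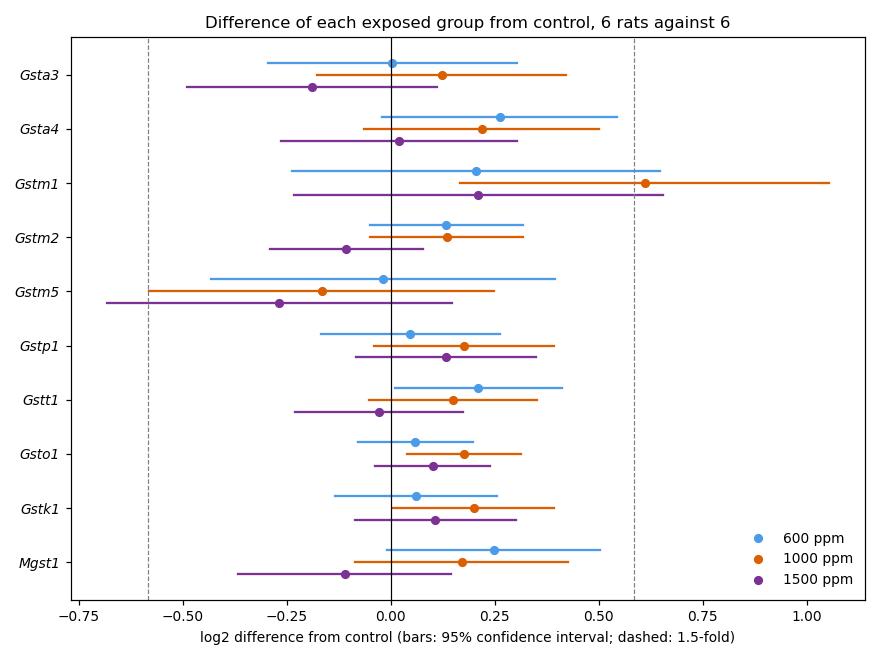
Difference of each exposed group from the control group on the log2 scale (horizontal axis) for each member, with its 95% confidence interval from limma over 24 arrays. Dashed lines mark 1.5-fold in either direction, and the point of Gstm1 at 1000 ppm, at 0.61, is the one that lies beyond them.

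Gstm1, a mu class enzyme, showed the largest difference among the members. In the control group its log2 scaled signal ran from 0.54 through a median of 0.84 to 1.44. The low-dose group ran from 0.73 through 1.17 to 1.61, the middle-dose group from 1.16 through 1.57 to 1.88 and the high-dose group from 0.67 through 1.07 to 1.77. All 6 middle-dose rats were above the control median and 4 of 6 were above every control rat, while the low-dose and high-dose groups overlapped the control range over most of their length. The middle-dose mean was 0.61 ± 0.21 (SE) above control on the log2 scale, a fold change of 1.53 with a 95% confidence interval of 1.12 to 2.08. Limma gave an unadjusted p-value of 0.00919 and an adjusted p-value of 0.515, and the exact two-sided permutation test of 6 rats against 6 gave p = 0.0216, among 30 such tests. At the low dose the difference was 0.20 ± 0.21 and at the high dose 0.21 ± 0.21.

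The rise of Gstm1 in the middle-dose group was close to the study's fold threshold. Leaving out each of the 24 rats in turn, the unadjusted p-value stayed under 0.05 in all 24 fits, from 0.00362 to 0.0264. The fold change fell below 1.5 in 5 of them, to 1.45 without control rat 2, 1.47 without control rat 21, 1.44 without control rat 23, 1.47 without middle-dose rat 31 and 1.46 without middle-dose rat 33. With the slide as a fixed block the difference was 0.44 (unadjusted p = 0.231 by limma), and with the slide as a random block it was 0.58 (unadjusted p = 0.0231 by limma). On the 2 slides that held low-dose and middle-dose rats together, both middle-dose rats were above both low-dose rats, by a mean of 0.36 in males and 0.24 in females. On the 2 slides that held middle-dose and high-dose rats, the single middle-dose rat was above all 3 high-dose rats, whose means were lower by 0.57 in males and 0.52 in females. The low-dose rat on the male control slide was 0.43 above the mean of its 3 controls, and that on the female control slide was 0.15 below.

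**Figure D3:**
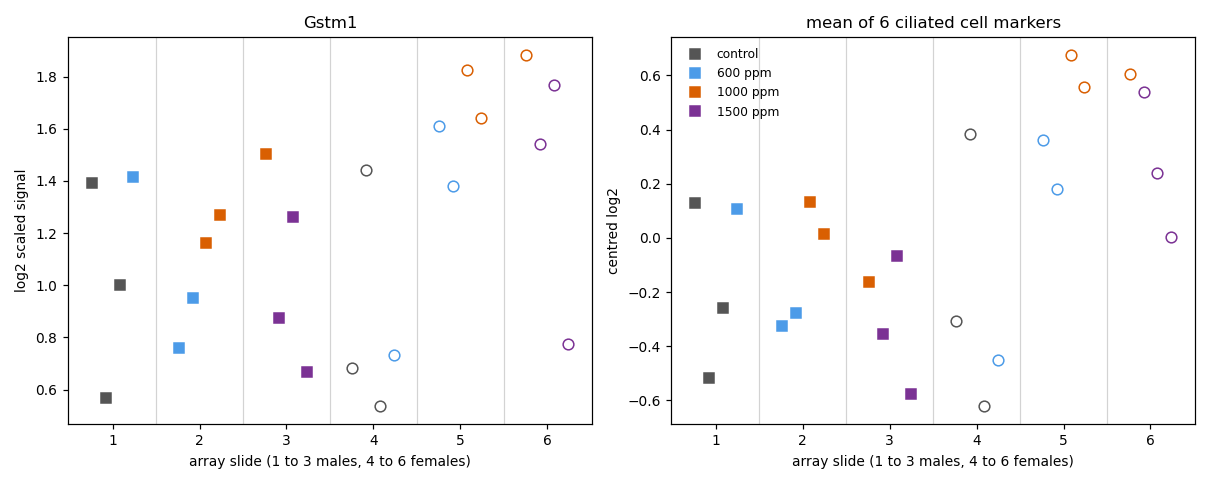
Log2 scaled signal of Gstm1 (left) and the mean of 6 ciliated cell markers, each centred on its mean over 24 rats (right), for each rat by array slide (horizontal axis). On slides 2 and 5 both middle-dose rats are above both low-dose rats in both panels, and on slides 3 and 6 the middle-dose rat has the highest Gstm1 value. Its ciliated cell mean is the highest on slide 6 but not on slide 3, where it is -0.16 against -0.07 in high-dose rat 17.

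Over the 24 rats Gstm1 followed genes of the conducting airways. The 3 named genes most like it were Dmrt3 (Pearson r = 0.952), Lrrc46 (r = 0.948) and Dynlrb2 (r = 0.946), the last a subunit of the dynein motor that was itself in the list of ciliated cell markers. Against the mean of the 6 ciliated cell markers tested (Foxj1, Tppp3, Dynlrb2, Ccdc40, Rsph1 and Tekt1), its r was 0.907 and its Spearman rho 0.92. The relation was 0.877 within groups, 0.858 in males, 0.929 in females and 0.882 without rats 31 and 23, the 2 rats farthest from the median of the marker mean. Against the mean of 6 club cell markers, genes of secretory cells of the airways, r was 0.903, and against 5 endothelial cell markers it was -0.851. The club cell mean leans on Scgb3a1 and Bpifa1, which varied most between rats. Their SD was 2.18 and 1.15 in control rats and 1.60 and 3.57 in middle-dose rats, against 0.15 and 0.18 for Scgb1a1. These correlations describe 24 arrays that share tissue sampling, slides and scaling, and they were picked from many.

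Most of those airway markers were higher in the same group. At the middle dose 6 of 6 ciliated cell markers were higher than control by a median of 0.52, and 4 had an unadjusted p-value under 0.05 by limma. Of 6 club cell markers 5 were higher and 4 passed. The other club cell marker, Scgb1a1, was at -0.16, -0.03 and -0.15 at the low, middle and high dose. At the low and high dose 0 of either list passed. Of all genes 8.98% passed at the middle dose, and 51.2% were higher there. After adjustment 0 markers of either list passed at any dose. The markers of a list were read in the same rats. The summed scaled signal of the ciliated cell markers, where 1 is the 75th percentile, ran from 64.0 to 82.8 in control rats, from 69.9 to 82.6 in low-dose rats, from 69.2 to 96.1 in middle-dose rats and from 69.9 to 88.1 in high-dose rats. For the club cell markers the sums ran from 172 to 269.6, 175 to 315, 222 to 310.2 and 175 to 349. The brightest marker of each list weighs most in these sums. For ciliated cells it was Tppp3 (control mean 5.95), at 0.09 at the middle dose (unadjusted p = 0.231 by limma), and for club cells Scgb1a1 (control mean 6.97). None of these markers was at background in any rat. In the fit with the ciliated cell mean as a covariate the middle-dose difference of Gstm1 was 0.15 (unadjusted p = 0.242 by limma), and with the club cell mean 0.17 (unadjusted p = 0.142 by limma). These covariates were added after the data were seen. Both means followed Gstm1 and were higher in the same group, so the fits cannot tell why the difference was smaller. For the other members below, too, the cause of a change under such covariates was not tested.

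Heart muscle genes, another of the marker lists, were also higher in the middle-dose group. All 7 tested were higher than control at the middle dose, by a median of 2.48. By limma 4 had an unadjusted p-value under 0.05, where 8.98% of all genes did, and 0 of the 7 passed after adjustment. Their summed scaled signal ran from 3.09 to 36.4 in control rats, from 4.56 to 61.0 in low-dose rats, from 8.09 to 127.6 in middle-dose rats and from 3.16 to 129.9 in high-dose rats, and 6 of the 7 were well above background on all arrays. The r of Gstm1 with their mean was 0.694, and it was 0.842 in males and 0.730 in females. With that mean as a covariate the middle-dose difference of Gstm1 was 0.33 (unadjusted p = 0.104 by limma). As with the airway means, the cause of the smaller difference was not tested. Of the 3 skeletal muscle markers tested, Acta1, a muscle actin (0.90, unadjusted p = 0.00831 by limma), and Ckm, the muscle creatine kinase (1.84, unadjusted p = 0.0312 by limma), were higher at the middle dose, and Tnnt3 was at 0.04. The myosin genes Myh1, Myh2 and Myh4 of the same list were on the array but did not pass the filter for signal above background. The summed scaled signal of Acta1, Ckm and Tnnt3 ran from 0.293 to 0.628 in control rats and from 0.345 to 0.957 in low-dose rats. It ran from 0.408 to 1.97 in middle-dose rats and from 0.368 to 2.06 in high-dose rats. These 3 tested markers were well above background on every array. The r of Gstm1 with their mean was 0.687, and it was 0.879 in males and 0.621 in females. In males the relation to both muscle means was thus about as close as that to the ciliated cell mean (0.858). The part of the skeletal muscle markers in the result was not tested.

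**Figure D4:**
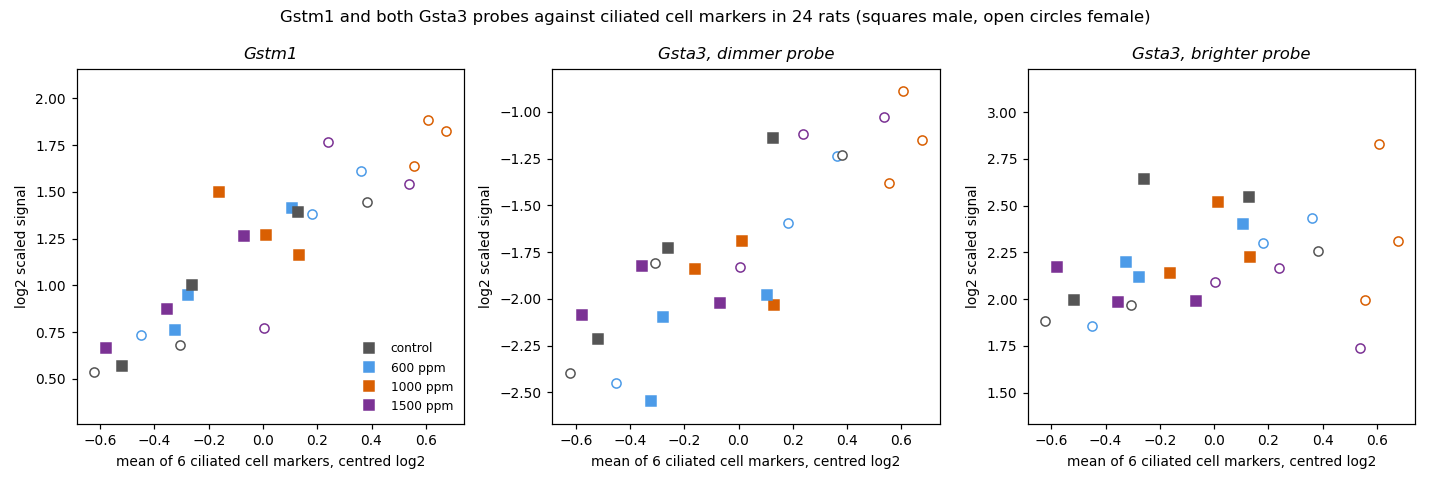
Log2 scaled signal of Gstm1 and of both Gsta3 probes (vertical axes, 1.9 units tall in each panel) against the mean of 6 ciliated cell markers (horizontal axis, centred log2) in 24 rats. Squares are males, open circles females, and colours the groups. Gstm1 (r = 0.907) and the dimmer Gsta3 probe (r = 0.851) rise along the axis, while the brighter Gsta3 probe scatters (r = 0.352).

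Gstm2 and Gstm5, the other mu class members, differed less from control. Gstm2 ran from 0.68 through 0.92 to 1.22 in control rats and from 0.84 through 1.06 to 1.26 in middle-dose rats, and its differences were 0.13, 0.13 and -0.11 at the low, middle and high dose. Gstm5 was the member with a lower mean than control at every dose, by -0.02, -0.17 and -0.27, and none of these passed the test (smallest unadjusted p-value 0.193 by limma). Its high-dose interval, from -0.68 to 0.15, reached beyond 1.5-fold. The r of Gstm1 over the 24 rats was 0.25 with Gstm2 and -0.01 with Gstm5, although the 3 genes neighbour each other in the genome.

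The alpha class members were Gsta3 and Gsta4. The brighter Gsta3 probe (A_64_P004231) ran from 1.88 through 2.13 to 2.64 in control rats, and its differences were 0.00, 0.12 and -0.19 at the 3 doses, each with a 95% confidence interval that included 0. The other Gsta3 probe (A_64_P035291) ran from -2.40 through -1.77 to -1.14 in control rats and gave -0.23, 0.26 and 0.10, so the probes opposed each other in sign at the low and high dose, and neither passed the test at any dose. Over 24 rats the 2 probes correlated with r = 0.414. The dimmer probe instead followed Gstm1 (r = 0.832) and the ciliated cell mean (r = 0.851), and the genes most like it were Ccdc17 (r = 0.941), Pfn2 (r = 0.922) and Odad1 (r = 0.912). The brighter probe was most like Washc3 (r = 0.901), Tmem106c (r = 0.891) and Unc50 (r = 0.88). Whether the probes read different transcripts was not tested.

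Gsta4 ran from 3.93 through 4.19 to 4.50 in control rats, from 4.20 through 4.46 to 4.77 in low-dose rats, from 4.22 through 4.38 to 4.61 in middle-dose rats and from 3.70 through 4.31 to 4.52 in high-dose rats. All 6 low-dose and all 6 middle-dose rats were above the control median, and 3 and 2 of them were above every control rat. The differences were 0.26 ± 0.14 (SE) at the low dose (unadjusted p-value 0.0686 by limma), 0.22 ± 0.14 at the middle dose (0.124) and 0.02 ± 0.14 at the high dose (0.885). The low-dose difference had an unadjusted p-value under 0.05 in 6 of 15 alternative fits, from 0.000616 to 0.0476, among them the fit with sex as a covariate (0.0355). With the club cell mean as a covariate, where the correlation of Gsta4 was -0.419, it was 0.41, and with the slide as a fixed block it was 0.12. The middle-dose difference passed in 4 alternative fits, at 0.31 with array weights and at 0.39, 0.44 and 0.35 with the ciliated, club and heart muscle means as covariates (unadjusted p-values of 0.0241, 0.00864, 0.000499 and 0.0191 by limma).

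Gstt1, the theta class enzyme known for small halogenated molecules, was the member that passed the unadjusted test at the low dose. It ran from -1.14 through -0.95 to -0.84 in control rats and from -0.98 through -0.78 to -0.46 in low-dose rats, and 3 of 6 low-dose rats, all female, were above every control rat. The difference was 0.21 ± 0.10 (SE), a fold change of 1.16 with a 95% confidence interval of 1.01 to 1.33 (limma, unadjusted p-value 0.0413, adjusted p-value 0.997), and the exact two-sided permutation test gave p = 0.0563. At the middle dose 4 of 6 rats were above every control rat (difference 0.15), and at the high dose the mean was 0.03 below control. The low-dose call was lost in 7 of 15 alternative fits (differences of 0.17 to 0.28, unadjusted p-values of 0.0506 to 0.101 by limma), among them those with the ciliated, club or heart muscle mean as a covariate and with the slide as a fixed block.

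Gsto1, the omega enzyme, which reduces dehydroascorbate and other thiol-reactive substrates, had the smallest spread within groups of all members (SD 0.10). Its control rats ran from -0.16 through -0.01 to 0.14 and its middle-dose rats from 0.07 through 0.17 to 0.28. All 6 middle-dose rats were above the control median and 4 above every control rat. The difference was 0.18 ± 0.07 (SE), a fold change of 1.13 with a 95% confidence interval of 1.03 to 1.24 (limma, unadjusted p-value 0.0143, adjusted p-value 0.515), and the exact two-sided permutation test gave p = 0.0152. The differences at the low and high dose were 0.06 and 0.10. Its highest r with a marker mean was that with the 3 skeletal muscle markers tested (0.649), followed by the club (0.617), heart muscle (0.606) and ciliated (0.596) means. With the ciliated, club and heart muscle means as covariates in turn, the middle-dose difference was 0.11, 0.11 and 0.11 and no longer passed (unadjusted p-values of 0.124, 0.124 and 0.108 by limma), nor did it with normexp background correction (0.11) or with the slide as a fixed block (0.23).

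Gstk1, the kappa enzyme, ran from 0.01 through 0.09 to 0.19 in control rats and from 0.10 through 0.27 to 0.45 in middle-dose rats. In that group 5 of 6 rats were above every control rat. The difference was 0.20 ± 0.09 (SE), a fold change of 1.15 with a 95% confidence interval of 1.00 to 1.31 (limma, unadjusted p-value 0.0446, adjusted p-value 0.547), and the exact two-sided permutation test gave p = 0.00866, the smallest of the 30. The control rats of this gene had an SD of 0.06, against 0.16 pooled over the 4 groups, and the limma fit uses the pooled spread. At the low and high dose the differences were 0.06 and 0.11, and the high-dose rats ran from -0.10 to 0.55. The middle-dose call was lost with the ciliated, club and heart muscle means as covariates (0.14, 0.15 and 0.20, unadjusted p-values of 0.193, 0.160 and 0.0775 by limma), with normexp (0.15) and with the slide as a fixed (0.13) or random (0.18) block.

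Gstp1, the pi class enzyme of many epithelia, ran from 2.55 through 2.95 to 3.19 in control rats and was 0.05, 0.18 and 0.13 above control at the 3 doses, with unadjusted p-values of 0.656, 0.104 and 0.214 by limma. Mgst1 ran from 1.62 through 1.94 to 2.40 in control rats, from 2.06 through 2.22 to 2.36 in low-dose rats and from 1.47 through 1.94 to 2.07 in high-dose rats. All 6 low-dose rats were above the control median but none was above the highest control rat. Its differences were 0.25 ± 0.12 (SE) at the low dose (unadjusted p-value 0.0578 by limma), 0.17 at the middle dose and -0.11 at the high dose. In 5 of 15 alternative fits the low-dose p-value was under 0.05, from 0.0157 to 0.0353.

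A rise with dose was tested as a slope over 0, 600, 1000 and 1500 ppm. By limma 0 of 10 members had an unadjusted p-value under 0.05, where 8.49% of all genes did, and the smallest was that of Gsto1 (slope 0.08 log2 units per 1000 ppm, unadjusted p = 0.067). The largest slope was that of Gstm1, 0.21 ± 0.15 (SE) per 1000 ppm (unadjusted p = 0.171 by limma). The middle-dose mean was the highest of the 4 groups for Gsta3, Gstm1, Gstm2, Gstp1, Gsto1 and Gstk1.

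Both sexes were present at every dose. With the dose group as a covariate, 2 of 10 members differed between 12 males and 12 females at an adjusted p-value under 0.05 by limma, where 24.9% of all genes did. Mgst1 was higher in males by 0.25 ± 0.07 (SE, limma, adjusted p = 0.012), with male values from 1.91 to 2.40 and female values from 1.47 to 2.24. Gsta4 was higher in males by 0.25 ± 0.08 (SE, limma, adjusted p = 0.0321), with male values from 4.20 to 4.77 and female values from 3.70 to 4.61. Males had the higher mean of Gsta4 in 4 of 4 groups and of Mgst1 in 3 of 4, the low-dose group being the exception. The effects of sex and of slide cannot be told apart, and with the slide as a random block 0 members passed (adjusted p = 0.0553 for Mgst1 and 0.107 for Gsta4 by limma), with 2829 genes (13.3%) over the whole array.

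The difference in dose effect between the sexes was tested too. At the low dose it had an unadjusted p-value under 0.05 by limma for 2 of 10 members, where 5% of all genes did, at the middle dose for 0 members (9.43% of genes) and at the high dose for 0 members (20.1% of genes). The estimated effect was lower in males than in females for 8, 10 and 9 of 10 members at the low, middle and high dose, with medians of the difference of -0.20, -0.25 and -0.27, where it was lower in males for 52.9%, 46.0% and 48.7% of all genes, with medians of -0.01, 0.02 and 0.01. The members were read in the same rats and the 3 doses share their controls. For Gstm1 at the middle dose the difference from control was 0.90 in females and 0.32 in males (difference between the effects -0.57 ± 0.41 SE, unadjusted p = 0.185 by limma). Low-dose females had Gstt1 0.47 above control females, while low-dose males were 0.05 below control males (difference between the effects -0.53 ± 0.16 SE, unadjusted p = 0.00453 and adjusted p = 0.921 by limma). Low-dose females had Mgst1 0.47 above control females, while in males the difference was 0.02 (difference between the effects -0.45 ± 0.18 SE, unadjusted p = 0.0234 and adjusted p = 0.952 by limma). With the slide as a fixed block the difference between the effects was -0.30 for Mgst1 (unadjusted p = 0.273 by limma). For Gstt1 it was -0.67 in that fit (unadjusted p = 0.00739 by limma). In control rats the females were the lower sex for both genes, at -1.07 against -0.88 for Gstt1 and at 1.76 against 2.18 for Mgst1.

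Between the members, 35 of 45 pairs correlated positively over the 24 rats, with a median r of 0.243, and 5 pairs had an r over 0.5. The highest was that of Gstm2 and Mgst1 (r = 0.762), followed by Gsta3 and Gstm2 (0.675), Gstm1 and Gsto1 (0.575), Gsta3 and Mgst1 (0.564) and Gsta4 and Mgst1 (0.527). The lowest was that of Gsta4 and Gstm1 (r = -0.312, and -0.619 within groups). The marker means set these genes apart in the same way. Gstm1 was positive with the ciliated and club means and negative with those of alveolar type I (r = -0.585), alveolar type II (-0.549) and endothelial cells, while Gsta4 was positive with alveolar type I (0.674), alveolar type II (0.621) and endothelial cells (0.506). Gstm5 had its highest r with the mean of stromal and fibroblast markers (0.635), and no member had an r over 0.5 with liver markers. Of the 5 liver markers tested only 2 were well above background on all arrays, so that mean says little. The highest r with it was that of Gstt1 (0.319, Spearman rho -0.03). Low-dose rat 26 had the highest liver mean (3.10) and the highest Gstt1 value (-0.46) of all rats, and its part in that r was not tested.

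Among the genes most like the other members were Chmp5 for Gsta4 (r = 0.849), Washc3 for Gstm2 (r = 0.845), Pcyox1 for Gstm5 (r = 0.718), Selenoh for Gstp1 (r = 0.674), Med25 for Gstt1 (r = 0.78), Ift27 for Gsto1 (r = 0.776) and Lrrc36 for Gstk1 (r = 0.782). Washc3 was thus the nearest gene of both Gsta3 and Gstm2. The within-group SD of the members lay between 0.10 for Gsto1 and 0.38 for Gstm1, where the median over all genes was 0.23. Over the 24 rats the highest Gstm1 value was 2.55 times the lowest.

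**Figure D5:**
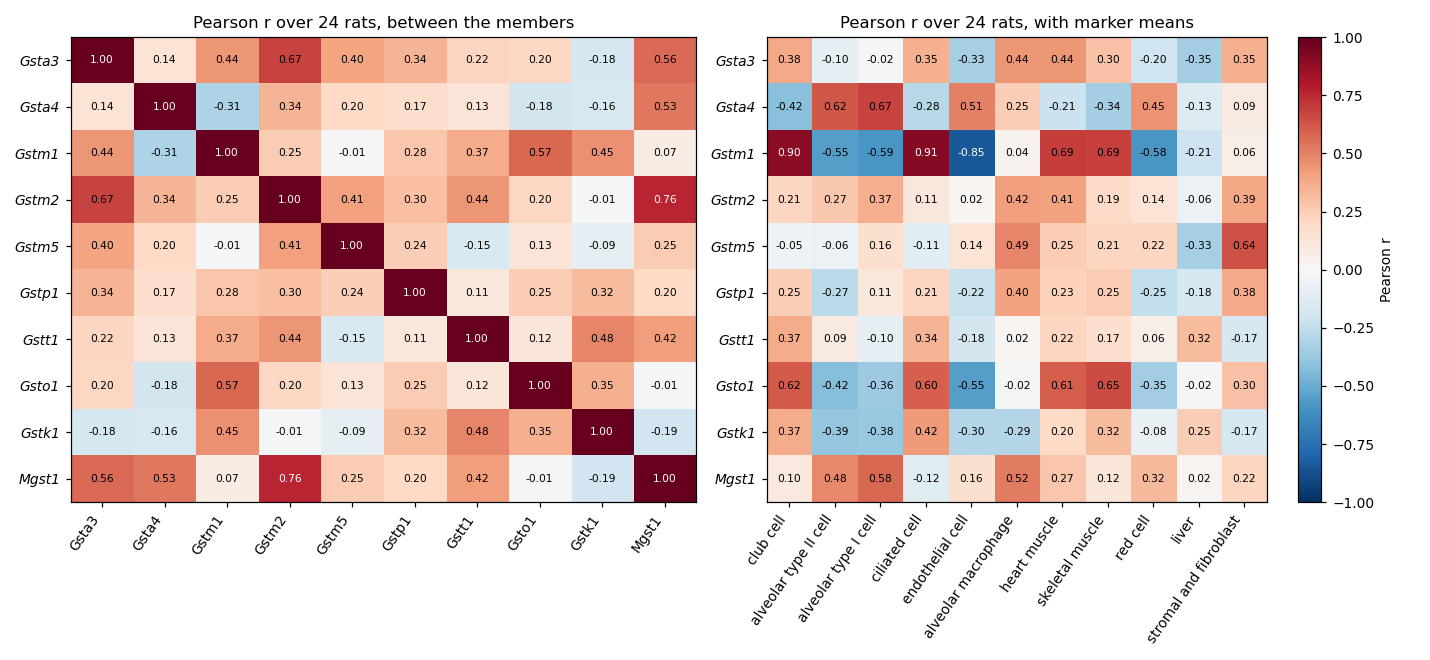
Pearson r over 24 rats between the members (left) and of each member with the mean of each list of cell type or tissue markers (right), from -1 in blue to 1 in red. Gstm1 stands apart from the other members in the right panel, with 0.91 for ciliated and 0.90 for club cell markers and -0.85 for endothelial cell markers.

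The genes around these enzymes were taken from 5 fixed lists of 82 genes, of which 73 were tested. At an unadjusted p-value under 0.05 by limma 2 were higher and 1 lower at the low dose (4.11%), 6 higher and 0 lower at the middle dose (8.22%) and 4 higher and 1 lower at the high dose (6.85%), close to the shares of all genes given above, and 0 passed after adjustment. Their median difference was 0.01, 0.03 and 0.00 at the 3 doses. Ltc4s, which joins glutathione to a leukotriene, was the gene that met the study's rule, at the middle dose, with a difference of 0.62 ± 0.26 (SE, unadjusted p = 0.0254 by limma). Its signal was low, with a control mean of -3.81.

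Among the 17 other transferases and related membrane enzymes tested, Mgst3 was higher at every dose, by 0.21, 0.20 and 0.16 (unadjusted p-values of 0.00759, 0.0118 and 0.0418 by limma, with the same control rats in all 3), and Gsta6 was lower at the low dose, by 0.50 (unadjusted p = 0.021 by limma). Of 13 genes of glutathione synthesis and recycling, Gclm, the modifier subunit of the first enzyme of synthesis, passed at the high dose (0.53, unadjusted p = 0.031 by limma, with 1 control array giving no value for it). Its signal was low, with a control mean of -5.98. Gclc, the catalytic subunit of that enzyme, was at -0.01, 0.12 and 0.10, and Gss, which completes synthesis, was at -0.19 at the low dose (unadjusted p = 0.112 by limma).

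Of 15 glutathione peroxidases, glutaredoxins and glyoxalase genes, the peroxidase Gpx6 passed at the middle and high dose (0.31 at each), Esd at the low dose (0.19), and Adh5 (0.18) and Hagh (-0.25) at the high dose. Esd and Adh5 encode enzymes that clear formaldehyde bound to glutathione, and Hagh the last step of methylglyoxal removal. Of 19 genes of conjugate export and mercapturate formation, the transporter Abcg2 (0.54) and the gamma-glutamyl transferases Ggt5 (0.48) and Ggt1 (0.36), which start the breakdown of glutathione conjugates, passed at the middle dose, and 0 passed at the low and high dose. Signals were low for Abcg2, Gpx6 and Ggt5, with control means of -5.04, -4.06 and -3.77. Of 9 regulators and reference targets of Nrf2, 0 passed at any dose. The smallest p-values were those of Cul3 (-0.17, unadjusted p = 0.0715 by limma) and Mafg (-0.24, unadjusted p = 0.0801 by limma) at the high dose, and Nqo1, a common reference target, was at -0.20, -0.01 and 0.06.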

How the data were processed

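Lung RNA of 24 rats was labelled with 1 colour and hybridised to Agilent arrays, 1 rat per array, and groups were taken from the sample labels. The authors deposited intensity values from Agilent Feature Extraction, with the local background taken off and no scaling of 1 array to another, and a table of the whole series in which 99.5% or more of the probes of every array held the same value within 1%. Spots flagged as outliers were left out, spots of a probe were averaged as log2 values, and the log2 75th percentile of the array was subtracted. Of 30367 probes, 18355 matched 15443 symbols by accession through RefSeq's gene table for GRCr8. The 23616 probes that the scanner software marked as well above background for 5 or more of the 6 rats of some group were kept, with the brightest probe of each gene. R 4.3.3 with limma 3.58.1 (lmFit and eBayes on all 24 arrays, Benjamini-Hochberg over 21255 tests) was used, after a check on simulated data, with exact two-sided permutation tests for members.

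The number of arrays limits the precision. Rats are the replicates, and no other batch than slide was found, all arrays having been scanned on 1 day. All members were named, and of each pathway list the genes that met the study's rule, otherwise the 2 with the smallest p-value. Esd, Hagh, Ggt1, Gclc, Nqo1, Mgst3 and Gsta6 were named in addition, after their values were seen. The members and lists were chosen with earlier results of these data known. Alternatives covered background correction, scaling, filter, test, slide, sex, array weights, the other probe and each rat left out. The marker means as covariates, and the slide as a random block in the comparison of the sexes, were added after seeing the data. In the ranking of genes by likeness to the members, 1 gene is not reported here.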

Additional observations from a re-analysis of the deposited data

How the results depend on the processing

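Of 453 dose differences of single members under other settings, 390 kept their direction and their side of the threshold, and of 720 values with 1 rat left out, 672 did. The direction changed in 25 and 19 of them, all for differences that had not passed the test. No paired analysis was possible because the groups share no replicate numbers. The causes of the changes below were not tested.

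The count of members at an unadjusted p-value under 0.05 at 600 ppm, 1 in the report, was 0 with normexp background correction, with the authors' table without scaling and with the methods' t-test, 2 in fits of control and 1 dose only, with the slide as a random block and with the ciliated cell mean as a covariate (Gsta4 and Mgst1, without Gstt1), and 3 with sex as a covariate and with array weights. At 1000 ppm the count of 3 became 1 with normexp (Gstm1) and with each of the ciliated, club and heart muscle covariates, where Gstm1, Gsto1 and Gstk1 all lost the call and Gsta4 gained it. It was 2 with the slide as a random block (without Gstk1), 0 with the slide as a fixed block and 5 with array weights. Gstm1 no longer met the study's rule at 1000 ppm (count 0 in place of 1) with the slide as a fixed or random block or with any of the 3 marker covariates. The count of pathway genes that met the rule at 600 ppm, 0 in the report, was 3 with the slide as a fixed block and 1 with array weights and with the ciliated and club covariates. At 1000 ppm, where it was 1, it was 0 with normexp, 2 with the authors' table, the fixed and the random block and 3 with the heart muscle covariate, and at 1500 ppm, where it was 0, it was 2 with the fixed block. The count of members with a sex difference, 2 in the report, was 0 in control rats only, 1 with quantile normalization and 0 with the slide as a random block. The count whose effect differed between the sexes was 1 at 600 ppm, without Mgst1 (2 in the report), and 1 at 1500 ppm (0 in the report) with the slide as a fixed block.

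Differences changed sign as follows, on the log2 scale. With normexp, Gsta4 (-0.019) and Gstt1 (0.0051) did so at 1500 ppm. With the authors' table, Gstm5 at 600 ppm (0.052) and Gsta4 at 1500 ppm (-0.045) did, and with quantile normalization Gsta3 at 600 ppm (-0.023) and Gstp1 between the sexes (-0.0030). With the slide as a fixed block, Gsta3 (-0.087) and Gstp1 (-0.094) changed sign at 600 ppm, Gsta3 (-0.088) and Gstp1 (-0.096) at 1000 ppm, and Gsta4 (-0.0094), Gstm1 (-0.11), Gstp1 (-0.26) and Gstt1 (0.16) at 1500 ppm. With the slide as a random block Gsta3 at 600 ppm was -0.0088 and Gstt1 at 1500 ppm 0.012. With array weights Gstm5 at 600 ppm was 0.078 and Mgst1 at 1500 ppm 0.033. The other probe of Gsta3 gave -0.23 at 600 ppm and 0.10 at 1500 ppm. With the ciliated covariate Gsta3 at 600 ppm was -0.024. With the club covariate Gsta3 (-0.075) and Gstm1 (-0.084) at 600 ppm and Gstm1 at 1500 ppm (-0.0034) changed sign, and with the heart muscle covariate Gsta3 at 600 ppm (-0.051) and at 1000 ppm (-0.0023). In control rats only, the male minus female difference turned for Gstm1 (0.099), Gstt1 (0.19), Gsto1 (0.040) and Gstk1 (0.019).

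With 1 rat left out, the count of members under 0.05 ranged from 0 to 3 at 600 ppm and from 0 to 1 at 1500 ppm, the count that met the study's rule at 1000 ppm from 0 to 1, and the count with a sex-dependent effect from 1 to 2 at 600 ppm, 0 to 2 at 1000 ppm and 0 to 2 at 1500 ppm. The differences that changed sign ranged from -0.063 to 0.089 for Gsta3, -0.17 to 0.11 for Gstm5 and -0.027 to 0.10 for Gstp1 at 600 ppm, and from -0.042 to 0.12 for Gsta4 and -0.065 to 0.012 for Gstt1 at 1500 ppm. Gstt1 at 600 ppm lost its unadjusted call without any of rats 21, 22, 23, 26, 27 and 28, all female (difference 0.15 to 0.21, limma p-values 0.0619 to 0.126). Gstk1 at 1000 ppm lost it without any of rats 1, 3, 21, 22, 23, 11, 13, 31, 32 and 33 (0.17 to 0.20, 0.0547 to 0.104), and the sex-dependent effect of Mgst1 at 600 ppm without any of rats 3, 22, 23 and 7 (-0.41 to -0.34, 0.051 to 0.0781). Rats whose absence brought a member under 0.05 were 1, 3, 7 and 36 for Mgst1 and 3, 6, 27 and 37 for Gsta4 at 600 ppm, rat 1 for Gstm2 at 600 and 1000 ppm, rat 3 for Gstp1 and Mgst1 at 1000 ppm and rat 17 for Gsto1 at 1500 ppm.

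Over all genes, the number that met the study's rule ranged over the settings from 40 to 587 at 600 ppm, 155 to 569 at 1000 ppm and 95 to 479 at 1500 ppm (131, 347 and 260 in the report's fit). The median of all genes at 1000 ppm moved to -0.12 with normexp and to 0.11 with the authors' table. The members' differences in those fits are given without taking that shift off. All 11 probes were above background on every array. The precision is limited by 6 rats in each group, and no slide held control rats with middle-dose or high-dose rats.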
